A study of Macaca fascicularis and Macaca mulatta and Papio anubis with 20 samples.

Results

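The genes described here are 6 components of the barrier that separates peripheral nerve from blood and surrounding tissue: the claudins *CLDN1*, *CLDN5* and *CLDN11*, the membrane protein gene *OCLN*, the scaffold gene *TJP1* and the glucose transporter gene *SLC2A1*. They were matched by symbol, by a rule that uses no measured value. All 6 were found among the 21369 features counted in the sections labelled *Papio anubis* and among the 20842 features counted in those labelled *Macaca mulatta*. Of the 22000 features counted in *Macaca fascicularis*, 5 carried a member's symbol and none carried *CLDN5*, which was dropped there. The features were ENSMFAG00000062691 (*CLDN1*), ENSMFAG00000040128 (*CLDN11*), ENSMFAG00000037125 (*TJP1*), ENSMFAG00000034647 (*OCLN*) and ENSMFAG00000031833 (*SLC2A1*), and *CLDN5* was ENSMMUG00000060434 in the sections labelled *P. anubis*.

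The tissue was dorsal root ganglion, the ganglion that holds the cell bodies of spinal sensory neurons, bought fresh frozen and sectioned for Visium spatial transcriptomics. In this assay RNA is captured on printed spots, each covering a patch of tissue with 1 or more cells or parts of cells, and a molecular tag (unique molecular identifier, UMI) lets every captured molecule count 1 time. The 16 *M. fascicularis* sections carry 4 codes in their titles, with 4 sections each: a female and a male of batch 1, and a female and a male of batch 2. The labels do not say that a code is 1 animal. Each code was treated as 1 specimen. The p-values of the fits rest on the spread between these 4 specimens, in part shared across features. The 2 sections labelled *M. mulatta* and the 2 labelled *P. anubis* were all of batch 2, with no sex given. The labels give no treatment and no age, and say that a ganglion gave at least 2 sections, so sections of a specimen may share a ganglion. The feature identifiers and file codes of these last 4 sections are those of the other species, so the labels and files may be crossed and values are given only for "sections labelled" with a species.

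A nerve barrier is built from tight junctions, belts in which claudins and occludin of neighbouring cells meet and are tied to the actin skeleton by scaffold proteins of the ZO family. In nerve, such junctions are made by the flattened cells of the perineurium, which wraps each bundle of fibres, and by the endothelium of vessels within the bundle; Schwann cells form further junctions between the turns of their own myelin. *CLDN1* is known from perineurial junctions, *CLDN5* from endothelial junctions, and *CLDN11* from the myelin of the central nervous system and from arachnoid barrier cells. *TJP1* encodes ZO-1, the scaffold shared by tight junctions of many cell types, and *SLC2A1* encodes GLUT1, which carries glucose across the perineurium and the endothelium of nerve and brain. Vessels among the cell bodies of sensory ganglia are known to be leakier than those of the nerve trunk.

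*M. fascicularis* sections held 1136433 to 7073134 UMIs under tissue, on 596 to 2587 spots. There were 190376 and 264661 UMIs in the sections labelled *M. mulatta*, and 595020 and 12595205 in those labelled *P. anubis*. Neuron markers were present in all 6 groups; the summed level of the neuron list was 19263 to 35699 CPM (UMIs per 1000000 UMIs of the section) over the *M. fascicularis* sections, and 6589.6 and 15154 CPM in the sections labelled *M. mulatta*. In these last sections the summed list of arachnoid markers, which includes the abundant *PTGDS*, stood at 15391 and 36303 CPM, against 169 to 1151 CPM over the *M. fascicularis* sections. In bulk sums of a section or a set of spots, fewer cells of a type and less RNA per cell cannot be told apart.

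Among the members *SLC2A1* gave the most UMIs over the *M. fascicularis* sections, 7759. Its level in the 4 batch 1 female sections was 179, 88.2, 136 and 119 CPM. In the batch 1 male it was 154, 159.8, 226 and 107 CPM. In the batch 2 female it was 144, 128, 102 and 94.7 CPM. In the batch 2 male it was 63.7, 62.5, 83.4 and 44.9 CPM, below every other *M. fascicularis* section. The group means were 162 ± 49.0 CPM (SD, n = 4 sections) in the batch 1 male, 130.5 ± 37.8 in the batch 1 female, 117 ± 22.9 in the batch 2 female and 63.6 ± 15.8 in the batch 2 male. The first 3 groups in this order overlapped one another.

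*TJP1*, the ZO-1 scaffold gene, gave 3811 UMIs. Its sections of the batch 1 female stood at 77.7, 44.5, 100.1 and 84.1 CPM. Those of the batch 1 male stood at 61.8, 65.1, 113 and 66.0 CPM. The batch 2 female sections, at 27.2, 30.3, 24.9 and 33.8 CPM, were the lowest and overlapped none of the others. The batch 2 male sections, at 65.9, 49.9, 72.6 and 44.0 CPM, lay within the range of the batch 1 sections or just below it.

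*CLDN11* gave 1095 UMIs. Its level was 36.7, 7.96, 18.4 and 23.3 CPM in the batch 1 female and 11.3, 34.5, 51.6 and 28.0 CPM in the batch 1 male. It was 10.5, 3.21, 3.14 and 10.9 CPM in the batch 2 female and 2.48, 11.03, 10.9 and 5.28 CPM in the batch 2 male. The batches overlapped through 1 section, the batch 1 female section at 7.96 CPM.

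The other 2 members were near the limit of detection. *CLDN1*, the perineurial claudin, gave 80 UMIs over the 16 sections, with 0 to 12 per section and a highest level of 2.69 CPM. *OCLN*, the occludin gene, gave 31 UMIs, with 0 in all 4 sections of the batch 2 male and at most 1.65 CPM elsewhere. A count of 0 in a section allows up to 3 UMIs, which is 0.932 to 2.64 CPM in the sections of the batch 2 male. The group means of *OCLN* were 0.576 ± 0.545 and 1.10 ± 0.450 CPM (SD, n = 4) in the batch 1 female and male. The female mean lay below this limit in all 4 sections of the batch 2 male, and the male mean in 3 of the 4. In those sections a difference from these specimens was not detectable section by section at this depth. For the summed sections of a specimen the limit is lower, and a difference in *OCLN* between specimens was not tested. The batch 2 female stood at 0.103 ± 0.121 CPM (SD, n = 4), from 2 UMIs.

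**Figure D1:**
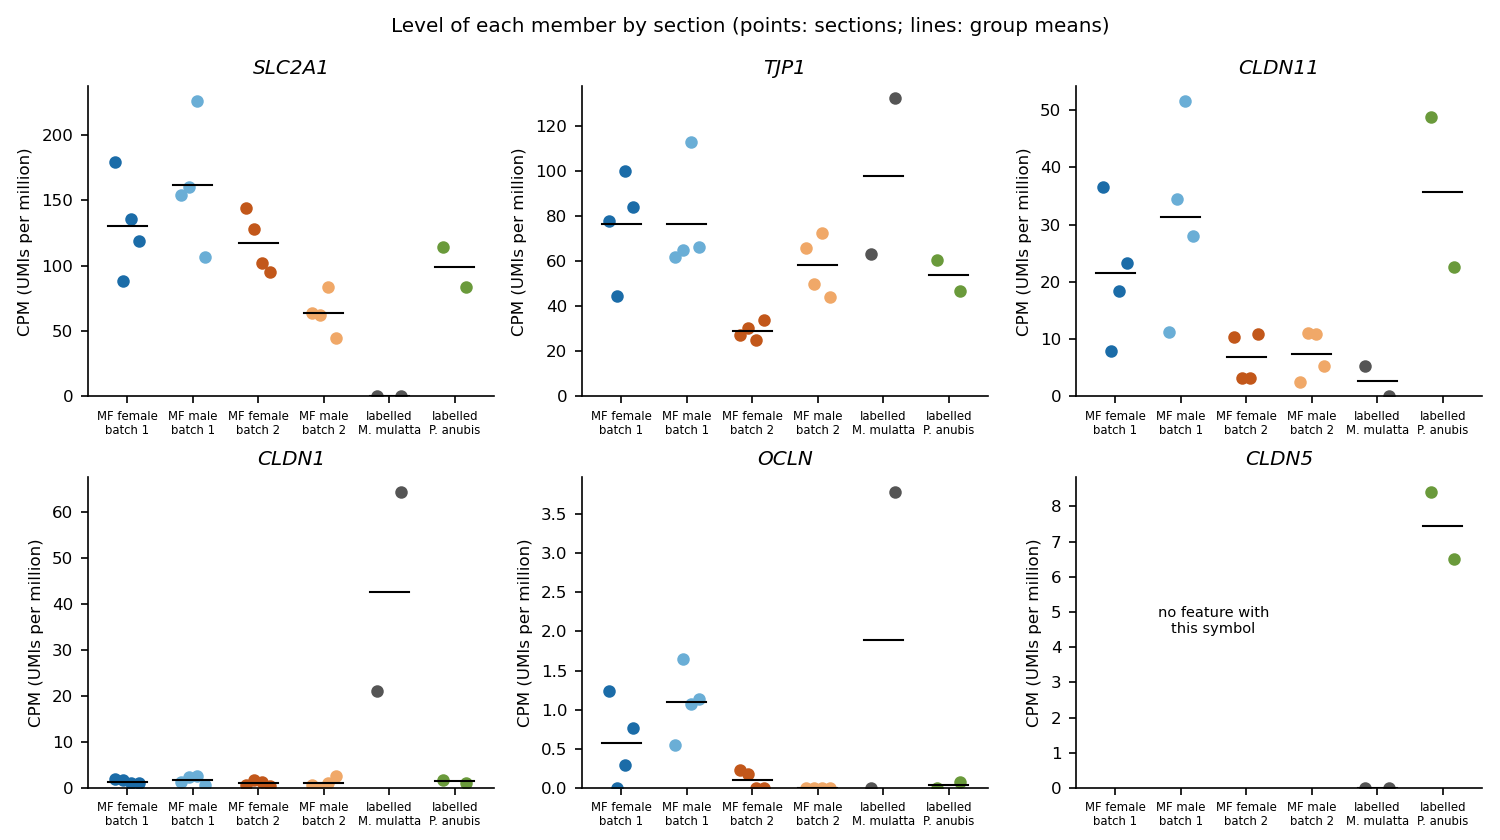
CPM of each member (y axes, each starting at 0) in every section, by group; points are sections and lines are group means, with MF for *M. fascicularis*. *SLC2A1* was at 0 in both sections labelled *M. mulatta*, where *CLDN1* stood at 21.01 and 64.2 CPM, and *TJP1* was lowest among *M. fascicularis* in the batch 2 female.

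The sections labelled with the other species were described without a test, since each label covers 2 sections of a single code. In the sections labelled *P. anubis*, *SLC2A1* stood at 114 and 83.6 CPM, *TJP1* at 60.5 and 46.8 CPM, and *CLDN11* at 48.7 and 22.6 CPM. All of these lay within the range of the *M. fascicularis* sections. *CLDN1* there stood at 1.68 and 1.11 CPM, from 1 and 14 UMIs. On the log2 scale, the mean of these sections against the mean of the 16 *M. fascicularis* sections was -0.26 for *SLC2A1*, -0.16 for *TJP1* and 1.09 for *CLDN11*, beside SDs between *M. fascicularis* sections of 0.62, 0.66 and 1.33. *CLDN5*, the endothelial claudin, gave 5 UMIs in the shallower section, 8.40 CPM with an exact 95% Poisson interval of 2.73 to 19.6, and 82 UMIs in the deeper one, 6.51 CPM with an interval of 5.18 to 8.08. These intervals cover counting error only.

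In the sections labelled *M. mulatta* the pattern was another. *SLC2A1* was listed at 0 in both, which allows up to 15.8 and 11.3 CPM, below the lowest *M. fascicularis* section at 44.9 CPM. *CLDN1* gave 4 and 17 UMIs, or 21.01 CPM (exact Poisson interval 5.72 to 53.8) and 64.2 CPM (37.4 to 103). Both intervals lay above the highest *M. fascicularis* section. *TJP1* stood at 63.0 and 132 CPM from 12 and 35 UMIs. *CLDN5* was at 0 UMIs in both, and *CLDN11* and *OCLN* gave 1 UMI each over both sections. The mural list, the markers of smooth muscle and pericytes, stood at 94.5 and 113 CPM in these sections against 323 to 1408 CPM in *M. fascicularis*, and the fibroblast list at 4569.9 and 8653 CPM against 178 to 2930. These sections also carry another annotation and the crossed codes named above; the part of each of these in the differences was not tested.

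Batch and sex were compared over the 4 specimens in a single edgeR quasi-likelihood fit of 12650 features, in which the batch also goes with the Space Ranger version. With both terms fitted to 4 specimens, little is left to measure a gene's own spread. The SEs and p-values of this fit therefore lean on spread shared across features. *CLDN11* fell in batch 2, by 1.68 on the log2 scale (SE 0.34), a 3.20-fold difference with an edgeR adjusted p of 0.0461. This was 1 of 4 members tested, beside a background of 2.88% of all features called in either direction with 1.61% called lower and 1.26% called higher. The log2 differences of the other members tested were -0.75 for *TJP1* (edgeR adjusted p = 0.198), -0.53 for *SLC2A1* (0.421) and -0.47 for *CLDN1* (0.717). *OCLN* did not pass the filter on low counts here or in any comparison below. The call of *CLDN11* was lost on leaving out any of 6 sections, with edgeR adjusted p-values of 0.0531 to 0.0966: sections 3 and 4 of the batch 1 male, sections 2 and 3 of the batch 2 female, and sections 1 and 2 of the batch 2 male.

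Genes of connective tissue moved with the batch as well. Of the 13 genes of the fibroblast list, 10 were tested and 7 fell, with a median log2 difference of -3.61 against -0.01 over all features. In other lists fewer fell: 2 of 13 myelin genes, 2 of 9 mural genes and 1 of 7 arachnoid genes tested. The summed list stood at 911 to 2930 CPM in the batch 1 sections and at 178 to 554 CPM in the batch 2 sections, and 0 of its genes were at 0 throughout. Outside the spots richest in these genes, *CLDN11* stood at 10.9 and 15.7 CPM in the batch 1 female and male and at 4.41 and 3.73 CPM in the batch 2 female and male. The part of these genes in the fall of *CLDN11* was not tested. Between sexes 0 of the 4 members tested were called, where 0% of the 12650 features were called by edgeR and 0 by DESeq2. At an unadjusted p under 0.05 edgeR gave 169 features and 0 members.

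To describe which region of the ganglion each member marks, spots with at least 200 UMIs were ranked within each section by their summed share of a marker list that holds no member. The 25% with the highest share were compared with the remaining spots, with UMIs summed per specimen and the specimen as a block in edgeR. Such sets overlap: 46.3% of the spots rich in the mural list were also among those rich in the fibroblast list, and 40.9% were among those rich in the myelin list. Depth went with the sets, since the median UMI count was higher in the neuron-list spots than in the others in 15 of 15 sections, and lower in the myelin-list spots in all 15 and in the mural-list spots in 14. The calls below rest on the specimen block: without it 0 members were called in any set except the myelin-list spots, where 1 was.

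All 3 well-measured members were lower around neuronal cell bodies. In neuron-list spots *SLC2A1* stood at 73.9 ± 23.1 CPM (SD, n = 4 specimens) against 144 ± 54.5 in the other spots, and *TJP1* at 41.8 ± 13.4 against 73.0 ± 30.6. *CLDN11* stood at 6.61 ± 4.66 against 22.1 ± 18.05 CPM. Each was lower in 4 of 4 specimens. The log2 differences were -0.89 for *SLC2A1*, -0.77 for *TJP1* and -1.69 for *CLDN11*, with edgeR adjusted p-values of 2.3e-07, 9.0e-06 and 1.1e-07. These were 3 of the 4 members tested, where 42.1% of the 12119 features tested were called in either direction, 22.1% lower and 20% higher. *CLDN1* differed by -0.61 (edgeR adjusted p = 0.222), and with the neuron list taken without neurofilament genes by -1.41 (edgeR adjusted p = 0.016). In the same fit 11 of 11 myelin, 10 of 10 fibroblast, 8 of 12 endothelial and 6 of 9 mural genes tested also fell; their part in the members' fall was not tested. Against spots rich in none of the lists, spots rich in the neuron list alone called 0 of 3 members by edgeR, where 33.3% of features were called; *SLC2A1* stood at 55.5 ± 17.9 against 62.5 ± 8.68 CPM, with a fitted log2 difference of 0.05 (edgeR adjusted p = 0.719).

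The same members were then read by distance from the nearest neuron-list spot, an alternative added after the data had been seen and described with no test. *SLC2A1* stood at 73.9 CPM in the neuron-list spots themselves, at 109 CPM at 1 array step, at 134 CPM at 2 steps and at 380.0 CPM at 3 or more steps, as means over the specimens. *CLDN11* stood at 6.61, 13.3, 21.4 and 73.4 CPM at the same distances. *TJP1* stood at 41.8, 57.5, 73.6 and 155 CPM. For each of these genes the spots at 3 or more steps held the highest level in every specimen. At that distance *SLC2A1* reached 393 CPM in the batch 1 female, 478 in the batch 1 male and 545 in the batch 2 female, and 104 CPM in the batch 2 male.

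**Figure D2:**
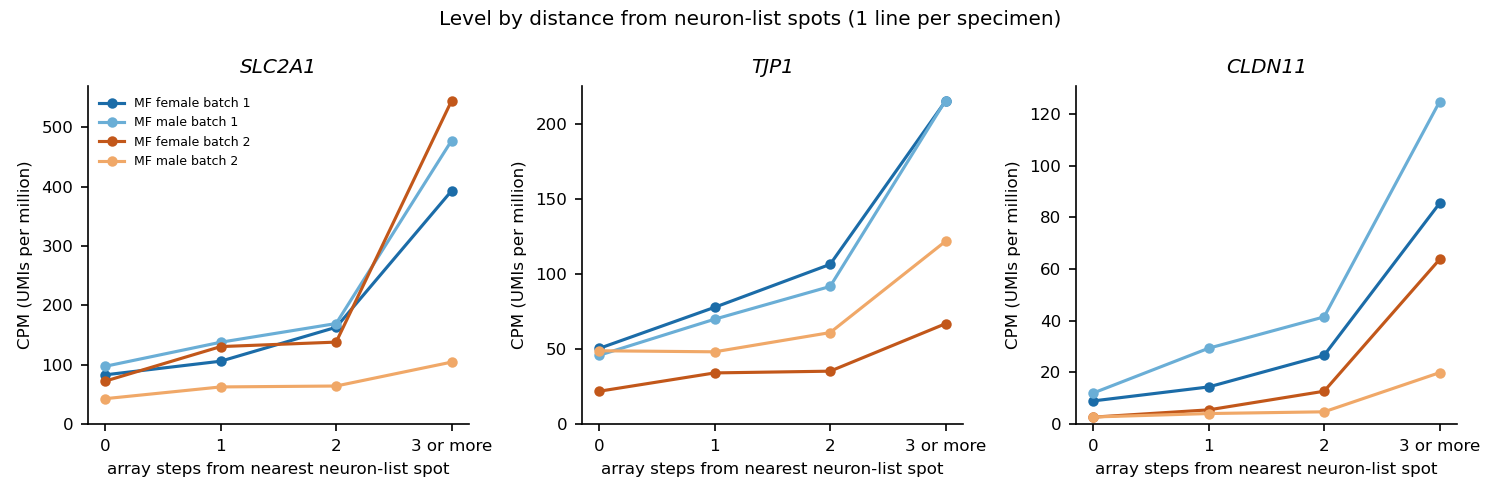
CPM of *SLC2A1*, *TJP1* and *CLDN11* (y axes, starting at 0) against the distance in array steps from the nearest neuron-list spot, with 1 line per *M. fascicularis* specimen. Each line ends at its highest point, at 3 or more steps; for *SLC2A1* the batch 2 male ends at 104 CPM and the others between 393 and 545 CPM.

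Levels of all 4 tested members were higher in spots rich in fibroblast markers, the collagens and proteoglycans of the sheath and connective tissue. *SLC2A1* stood there at 600.4, 709, 749 and 65.4 CPM in the batch 1 female, batch 1 male, batch 2 female and batch 2 male, against 83.5, 102, 77.0 and 57.3 CPM in the other spots. The batch 2 male thus stood apart, with nearly equal levels. *CLDN11* stood at 110 CPM in the batch 1 female, 202 in the batch 1 male, 43.9 in the batch 2 female and 7.39 in the batch 2 male, against 10.9, 15.7, 4.41 and 3.73 CPM. *TJP1* stood at 259, 254, 88.7 and 53.3 CPM in the same order, against 64.4, 57.8, 25.3 and 56.9 CPM, and was the only one of these members that was not higher in the batch 2 male.

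The fitted log2 differences in fibroblast-list spots were 3.18 for *CLDN11* (SE 0.30, edgeR adjusted p = 0.00014), 2.39 for *SLC2A1* (SE 0.42, 0.0060), 2.33 for *CLDN1* (SE 0.49, 0.011) and 1.53 for *TJP1* (SE 0.31, 0.0096). All 4 members tested rose, where 18.2% of the 10820 features tested were called, 11.6% higher and 6.58% lower. *CLDN11* ranked 68th from the top. Genes of other lists were also higher in these spots, in the same fit: 11 of 12 endothelial, 6 of 8 mural, 9 of 12 myelin and 3 of 6 arachnoid genes tested; their part in the members' rise was not tested. *CLDN1* rested on 24 UMIs in these spots and 52 in the others. In the batch 2 male the share of the fibroblast list that set the cut was 0 in 2 of 3 sections and 219 CPM in the third, against 665 to 7441 CPM in the other specimens; its fibroblast-list spots were deeper than its other spots. Without this specimen the log2 differences were 3.42 for *CLDN11*, 2.94 for *SLC2A1*, 2.23 for *CLDN1* and 1.96 for *TJP1*. Without the batch 2 female only *CLDN11* kept its call; *SLC2A1* was at 2.04 (edgeR adjusted p = 0.0915) and *TJP1* at 1.43 (0.114), and *CLDN1* failed the filter, as it did without the batch 1 male. With the cut at the 90th percentile *CLDN1* was at 1.77 (edgeR adjusted p = 0.087). Without the batch 1 female *TJP1* was at 1.36 (edgeR adjusted p = 0.0625).

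Spots rich in mural markers, the contractile genes of vessel smooth muscle and the markers of pericytes, gave a similar picture. *SLC2A1* stood at 548, 692, 599 and 84.5 CPM in the 4 specimens, in the order above, against 78.4, 98.7, 85.2 and 54.0 CPM elsewhere. *CLDN11* stood at 89.5, 184, 32.8 and 10.2 CPM against 11.1, 15.98, 5.03 and 3.59 CPM. Both were higher in 4 of 4 specimens, least so for *SLC2A1* in the batch 2 male. The log2 differences were 2.99 for *CLDN11* (SE 0.21, edgeR adjusted p = 1.1e-06), 2.36 for *SLC2A1* (SE 0.29, 8.6e-05), 2.01 for *CLDN1* (SE 0.62, 0.029) and 1.55 for *TJP1* (SE 0.22, 0.00026). All 4 members tested rose, where 26.4% of the 10959 features tested were called, 15.3% higher and 11.2% lower. *CLDN11* ranked 44th and *SLC2A1* 133rd from the top. In the same fit 12 of 12 endothelial, 10 of 10 fibroblast and 10 of 11 myelin genes tested rose; their part in the members' rise was not tested. *CLDN1*, with 22 UMIs in these spots, was higher in 3 of 4 specimens. In the batch 2 male it gave 0 UMIs in these spots against 5 in the others. It was at 2.32 (edgeR adjusted p = 0.0653) without the batch 1 female, and failed the filter without the batch 1 male or without the batch 2 female.

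In spots rich in endothelial markers the differences were smaller. *SLC2A1* stood at 219 ± 133 CPM against 91.3 ± 25.5, higher in 4 of 4 specimens, and *TJP1* at 94.1 ± 56.2 against 52.8 ± 17.9, also in 4 of 4. *CLDN11* stood at 35.4 ± 36.8 against 11.5 ± 7.84 CPM, higher in 3 of 4. The log2 differences were 1.13 for *SLC2A1* (edgeR adjusted p = 0.00079), 0.76 for *TJP1* (0.0033), 1.44 for *CLDN11* (0.00088) and 1.23 for *CLDN1* (0.043, from 26 UMIs in these spots). All 4 members tested rose, where 11.1% of the 11210 features tested were called, 7.72% higher and 3.36% lower. In the same fit 10 of 10 fibroblast, 7 of 9 mural, 6 of 9 macrophage and 5 of 11 myelin genes tested rose; their part in the members' rise was not tested. *CLDN1* was not called with no filter on low counts (edgeR adjusted p = 0.0533) and failed the filter when either batch 1 specimen was left out, and with DESeq2 *CLDN11* was at 1.13 (DESeq2 adjusted p = 0.151) and *CLDN1* had no adjusted p. By specimen, the log2 ratio of *SLC2A1* was 1.67 and 1.68 in the batch 1 female and male and 0.51 and 0.35 in the batch 2 female and male; this difference between batches was not tested.

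Spots rich in myelin markers, the Schwann cell genes of nerve fibres, held more of 3 members. *TJP1* stood at 146 ± 71.6 CPM against 53.4 ± 19.7, *SLC2A1* at 236 ± 118 against 105 ± 34.1 and *CLDN11* at 32.1 ± 26.9 against 14.1 ± 11.4 CPM. Each was higher in 4 of 4 specimens, and *TJP1* had the largest fitted difference of the 3. The log2 differences were 1.42 for *TJP1* (SE 0.14, edgeR adjusted p = 4.5e-07), 1.17 for *CLDN11* (SE 0.20, 0.00021) and 1.11 for *SLC2A1* (SE 0.16, 5.0e-05). These were all 3 members tested, where 33.6% of the 10959 features tested were called, 17.2% higher and 16.3% lower. With the cut at the 90th percentile *CLDN11* was at 0.79 (edgeR adjusted p = 0.061). At the 75th percentile 9 of 10 fibroblast, 6 of 8 mural and 5 of 12 endothelial genes tested also rose; their part in the members' rise was not tested.

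Spots rich in satellite glia markers, genes of the cells that wrap each neuronal body, called 0 of 3 members, where 10.9% of the 11353 features tested were called by edgeR, 6.91% higher and 3.98% lower. DESeq2 also called 0, and 0 had an unadjusted p under 0.05, a threshold whose share over all features is not given here. *SLC2A1* stood at 105 ± 29.4 against 115 ± 42.2 CPM, *TJP1* at 61.8 ± 22.1 against 58.9 ± 23.2, and *CLDN11* at 14.1 ± 10.9 against 15.8 ± 12.7 CPM. Their log2 differences were -0.11, 0.06 and -0.16. None of these passed the threshold, at an edgeR adjusted p of 0.295, 0.647 and 0.514.

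Perineurial markers were present at a low level, with 9 of 12 list genes carrying a symbol in *M. fascicularis*. Spots rich in this list called 0 of 4 members, where 0.0612% of the 11439 features tested, 7 in all and each higher, were called by edgeR. DESeq2 also called 0 members. All 4 had an unadjusted edgeR p under 0.05. The share of all features at that unadjusted threshold is not given here, and the 0.0612% is not its background. The fitted log2 differences were 1.42 for *CLDN11*, 1.08 for *CLDN1*, 0.93 for *SLC2A1* and 0.70 for *TJP1*, with edgeR adjusted p-values of 0.195, 0.285, 0.169 and 0.145. The claudins stood higher in these spots in both batch 1 specimens and lower in both batch 2 specimens, a difference between batches that was not tested. By median UMIs these spots were also deeper than the other spots in every batch 2 section. In batch 1 they were shallower in every section but section 1 of the female. The part of depth in the claudins' difference was not tested. *CLDN11* stood at 43.5 against 13.2 CPM in the batch 1 female and 112 against 16.8 in the batch 1 male, but at 4.14 against 7.62 in the batch 2 female and 1.65 against 6.18 in the batch 2 male. *SLC2A1* stood at 274 against 91.0 CPM in the batch 1 female and 392 against 109.6 in the batch 1 male, and at 115 against 114 and 58.4 against 60.4 in the batch 2 specimens. *CLDN1* gave 9 and 13 UMIs in these spots in the batch 1 female and male, and 4 and 1 in the batch 2 female and male. With the cut at the 90th percentile all 4 members were called by edgeR, at log2 differences of 1.46 to 2.49. In that setting 2163 features were called, against 7 at the main cut. Without the batch 2 female 3 members were called, and the count over all features is not given here for that fit. The 0.0612% above is the background of neither setting.

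**Figure D3:**
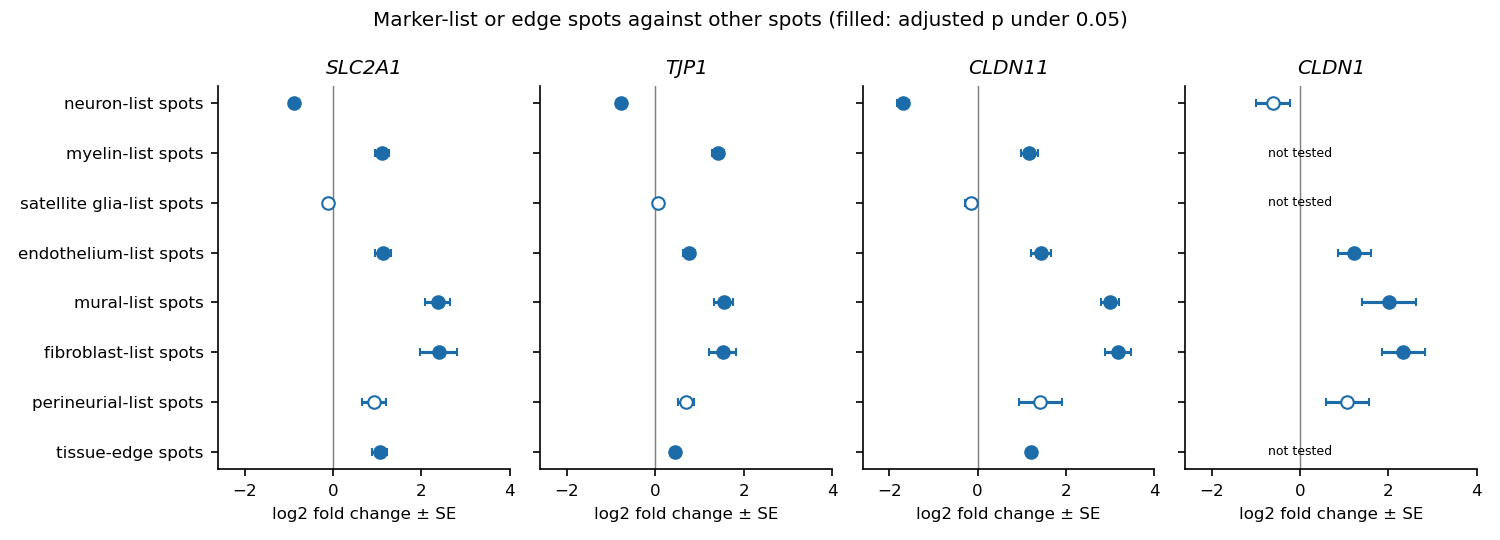
Fitted log2 fold change (x axes, ± SE) of *SLC2A1*, *TJP1*, *CLDN11* and *CLDN1* between the spots rich in each marker list, or at the tissue edge, and the remaining spots, over 4 *M. fascicularis* specimens. Filled points have an edgeR adjusted p under 0.05; all members shown were to the left of 0 in neuron-list spots, and *CLDN11* lay farthest right in fibroblast-list spots, at 3.18.

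Because the sets overlap, spots rich in a single list were also compared with spots rich in none, an alternative added after the data had been seen. *SLC2A1* stood at 375 ± 307 CPM in fibroblast-only spots, 269 ± 175 in mural-only spots, 139 ± 84.9 in myelin-only spots and 106 ± 29.9 in endothelium-only spots, against 62.5 ± 8.68 in spots of no list. Here too the batch 2 male stood apart, at 59.6 CPM in its fibroblast-only spots against 289 to 794 CPM in the others. *CLDN11* stood at 101 ± 79.0 CPM in fibroblast-only spots, 67.8 ± 46.3 in mural-only, 29.1 ± 26.4 in myelin-only and 9.80 ± 9.32 in endothelium-only spots, against 6.44 ± 1.94 in none. *TJP1* was nearly level over mural-only, fibroblast-only and myelin-only spots, at 126 ± 63.1, 123 ± 69.0 and 117 ± 30.0 CPM against 38.0 ± 13.0 in none.

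The fit of these sets gave the following calls. In fibroblast-only, mural-only and myelin-only spots *CLDN11* (log2 differences 3.97, 3.35 and 2.19), *SLC2A1* (2.31, 1.96 and 1.19) and *TJP1* (1.62, 1.65 and 1.67) all rose by edgeR, where 3.99%, 2.92% and 10.1% of the features tested were called higher. In endothelium-only spots *SLC2A1* (0.81) and *TJP1* (0.98) rose, while *CLDN11* was at 0.71 with an edgeR adjusted p of 0.497; 3.95% of features were called higher. In satellite glia-only spots *TJP1* rose by 0.37 (edgeR adjusted p = 0.0372), 1 of 3 members where 6% of features were called higher. In perineurial-only spots 0 of 3 were called by edgeR, where 0.0783% of features were called, with an edgeR adjusted p of 0.451 to 0.915. Of the 3, only *TJP1* had an unadjusted edgeR p under 0.05, and the share of all features at that threshold is not given here. The counts behind these values were small: *CLDN11* had 49 UMIs in fibroblast-only, 21 in mural-only and 14 in myelin-only spots.

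**Figure D4:**
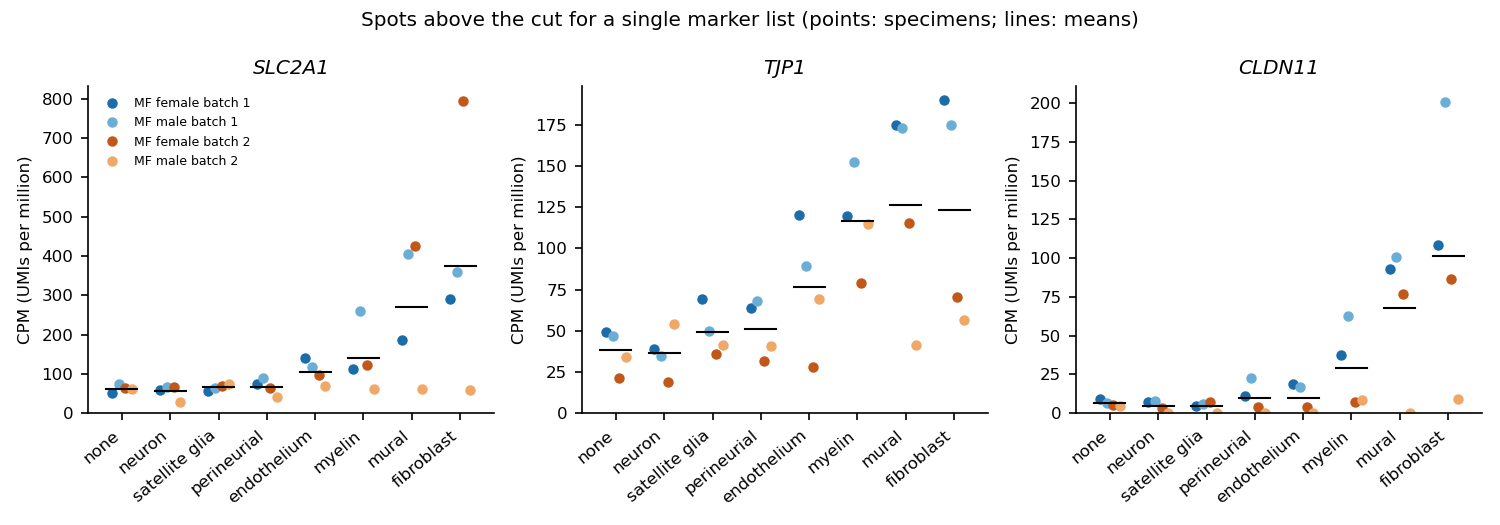
CPM of *SLC2A1*, *TJP1* and *CLDN11* (y axes, starting at 0) in spots rich in a single marker list or in none, in *M. fascicularis*; points are specimens and lines are means. Fibroblast-only and mural-only spots hold the highest means of *SLC2A1*, 375 and 269 CPM, and of *CLDN11*, 101 and 67.8 CPM, with the batch 2 male low in both.

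The edge of the tissue was defined without any expression value, as spots with a neighbouring array position not under tissue, 15.6% to 42.3% of the spots of a section. *CLDN11* stood at 32.8, 60.7, 14.5 and 8.50 CPM at the edge in the 4 specimens, in the order above, against 14.9, 24.5, 5.64 and 4.55 CPM inside, and was higher in 4 of 4. *SLC2A1* stood at 202, 296, 277 and 49.2 CPM against 103, 120.3, 90.8 and 63.7 CPM, higher in all but the batch 2 male. The log2 differences were 1.22 for *CLDN11* (SE 0.11, edgeR adjusted p = 1.6e-05), 1.06 for *SLC2A1* (SE 0.17, 0.0017) and 0.45 for *TJP1* (SE 0.09, 0.011). With DESeq2 *SLC2A1* was at 0.89 (DESeq2 adjusted p = 0.508), and without the batch 1 male *TJP1* was at 0.44 (edgeR adjusted p = 0.084). These were all 3 members tested, where 3.39% of the 11068 features tested were called, 2.58% higher and 0.804% lower. *CLDN1* did not pass the filter and stood at 2.58 ± 0.812 CPM at the edge, from 30 UMIs, against 0.831 ± 0.428 inside, higher in 4 of 4. Of the edge spots, 33.0% were also fibroblast-list spots and 29.4% mural-list spots. At the edge 8 of 10 fibroblast, 5 of 9 mural and 5 of 12 endothelial genes tested were called higher; their part in the members' rise was not tested.

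*CLDN5* could be placed only in the deeper section labelled *P. anubis*, a single section, so its values carry counting intervals and no test. In mural-list spots it stood at 41.2 CPM, from 29 UMIs, against 4.46 CPM in the other spots, a ratio of 9.22 (exact 95% interval 5.65 to 14.8). In fibroblast-list spots the ratio was 4.88 (2.64 to 8.52), in endothelium-list spots 2.41 (1.47 to 3.85), and in neuron-list spots 0.211 (0.114 to 0.369). It was 3.20 (1.47 to 6.22) in myelin-list spots and 3.18 (1.40 to 6.38) at the tissue edge, both above the ratio in endothelium-list spots. Over the 9384 features with at least 50 UMIs the median ratio was 1.11 in mural-list, 1.11 in fibroblast-list, 1.02 in endothelium-list and 0.886 in neuron-list spots. By percentile among these features, a measure added after the data had been seen, the ratio of *CLDN5* was highest in endothelium-list spots, at 99.3, and reached 98.8 in mural-list spots. Each of these 2 percentiles rests on 29 UMIs in the set and carries no counting interval, so their order is not settled. In the same section *SLC2A1* stood at 651 against 49.8 CPM in mural-list spots and *TJP1* at 305 against 31.2 CPM, ratios of 13.1 (11.5 to 14.8) and 9.77 (8.22 to 11.6). *CLDN11* stood at 154 against 15.9 CPM in fibroblast-list spots, a ratio of 9.69 (7.47 to 12.5). Of the 14 UMIs of *CLDN1*, 7 lay in fibroblast-list, 7 in mural-list and 8 in perineurial-list spots, which can be the same spots. Its ratio was 20.1 (6.02 to 67.2) in fibroblast-list, 16.9 (5.05 to 56.3) in mural-list and 6.28 (1.12 to 23.8) in myelin-list spots. In perineurial-list spots the ratios were 6.99 (2.13 to 24.4) for *CLDN1*, 3.09 (2.72 to 3.51) for *SLC2A1* and 2.74 (2.30 to 3.25) for *TJP1*. For *CLDN11* and *CLDN5* they were 2.36 (1.82 to 3.06) and 2.04 (1.20 to 3.36), with a median of 1.05 over the 9384 features. At the main cut the *M. fascicularis* comparison called none of its members there. In this section *SLC2A1*, *TJP1* and *CLDN11* thus stood higher in mural-list, fibroblast-list and myelin-list spots and lower in neuron-list spots, as they did in *M. fascicularis*. They also stood higher in its satellite glia-list spots, with ratios of 1.41 (1.20 to 1.66) for *SLC2A1*, 1.61 (1.30 to 1.97) for *TJP1* and 1.74 (1.28 to 2.32) for *CLDN11*, where the *M. fascicularis* comparison called 0 of 3.

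Moran's I measures whether spots near each other hold similar levels of a gene, and was taken from the authors' deposited tables, with their adjusted p-values. In the authors' deposited tables for *M. fascicularis*, *SLC2A1* had a median I of 0.0715, with a range of 0.0016 to 0.246, and passed an adjusted p under 0.05 in 12 of 16 sections. The background was 16.2% of all pairs of feature and section. The 4 sections that did not pass were those of the batch 2 male, at 0.0016 to 0.0111. *CLDN11* had a median I of 0.0339, reached 0.202 in a section of the batch 1 male, and passed in 10 of 16 sections in the authors' deposited tables. *TJP1* had a median of 0.0148 and passed in 5 of 16, and *CLDN1* and *OCLN* passed in 0 of the 15 and 9 sections whose deposited tables list them. Within a section's own table, *SLC2A1* stood at a median percentile of 97.4, *CLDN11* at 88.6 and *TJP1* at 80.0. In the deeper section labelled *P. anubis* the authors' deposited values were 0.197 for *SLC2A1*, 0.0556 for *TJP1*, 0.0433 for *CLDN11* and 0.0143 for *CLDN5*, the last with an adjusted p of 0.0822.

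**Figure D5:**
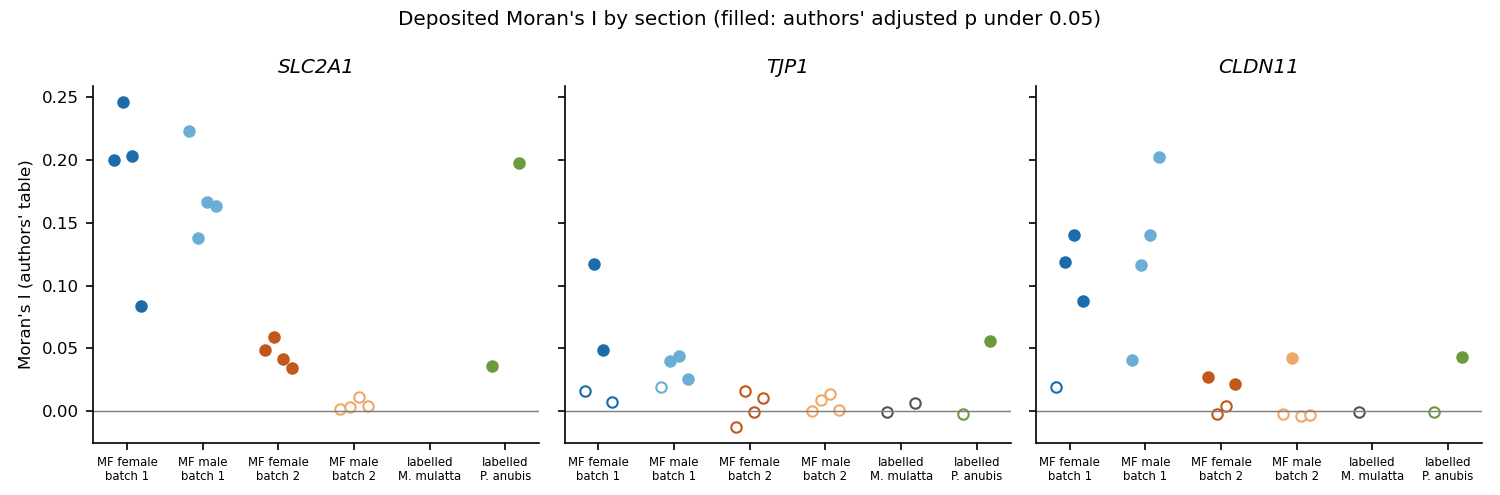
Moran's I of *SLC2A1*, *TJP1* and *CLDN11* (y axis) in each section, from the authors' deposited tables, by group; filled points have the authors' adjusted p under 0.05, and genes at 0 UMIs have no point. *SLC2A1* is highest in the batch 1 specimens, up to 0.246, and has only open points in the batch 2 male. *TJP1* has only open points in both batch 2 specimens of *M. fascicularis*.

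The genes whose level followed each member most closely over 600 tiles, small blocks of spots, 110 to 221 per specimen, were named as a description, by the median over specimens of Pearson's r, with no p; tiles share their section's depth. For *SLC2A1* they were *TAGLN* (r = 0.665), *DCN* (0.608) and *AEBP1* (0.599), the first a mural-list and the second a fibroblast-list gene. For *CLDN11* they were the secreted Wnt-pathway gene *SFRP4* (0.582), the matrix proteoglycan gene *PRELP* (0.545) and *IGFBP6* (0.531). For *TJP1* they were *CRYAB* (0.529), *DCN* (0.521) and *PTGDS* (0.500), with *CRYAB* ranging from 0.018 to 0.753 between specimens. The 99th percentile of r over all genes ranked was 0.339, 0.312 and 0.321 for these 3 members. Among the members themselves the medians were lower: 0.364 for *CLDN11* with *SLC2A1*, 0.308 for *TJP1* with *SLC2A1* and 0.287 for *CLDN11* with *TJP1*. *CLDN11*, like *CLDN1* and *OCLN*, had a median of 0 UMIs per tile, so its values rest on the minority of tiles that hold it. For *CLDN1* the closest genes were *OSBPL1A* (0.203), *DOCK5* (0.195) and *IRAK4* (0.181), and for *OCLN* they were *KIAA1328* (0.122), *DVL3* (0.121) and *NTN4* (0.117), values too weak in such sparse counts to count as a finding.

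Other claudins were few. Of 20 listed, 15 carried a symbol in *M. fascicularis*, 9 of these were at 0 UMIs in all 16 sections, and 3 were tested. *CLDN19*, known from Schwann cell junctions, rose in myelin-list spots by 4.12 on the log2 scale (SE 0.17, edgeR adjusted p = 2.5e-11), more than any member in any list. It also rose in mural-list (2.34) and fibroblast-list spots (2.06) and less in endothelium-list spots (0.66), and fell in neuron-list spots (-1.98). *CLDN20* rose in myelin-list spots (2.17) and was called in none of the other lists. *CLDN3* went the other way in vessel and fibre regions, at -0.92 in myelin-list, -0.63 in mural-list and -0.58 in endothelium-list spots, and also fell in neuron-list spots (-1.11).

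Of 35 listed junction partners, scaffolds, cadherins and adhesion molecules of tight and adherens junctions, 29 carried a symbol and 20 to 24 were tested in each list of spots; in the batch and sex comparisons 0 of 25 were called by edgeR. The counts below, and those of the transport genes, stand beside these shares of all features called higher and lower: 20% and 22.1% in neuron-list, 17.2% and 16.3% in myelin-list, 15.3% and 11.2% in mural-list, 11.6% and 6.58% in fibroblast-list, 7.72% and 3.36% in endothelium-list, 6.91% and 3.98% in satellite glia-list, and 2.58% and 0.804% in edge spots. In neuron-list spots 13 of 24 fell and 2 rose, with a median log2 difference of -0.36 against -0.04 over all features. *JAM3* (-1.12), *MPDZ* (-1.07) and *JAM2* (-1.03) fell most, and *PARD6A* (0.77) and *CDH2* (0.48) rose. *JAM3* gave only 62 UMIs over the *M. fascicularis* sections and *MPDZ* 170, so their values in every list rest on few counts. In myelin-list spots 10 of 22 rose and 2 fell, among them the scaffold gene *MPDZ* (2.77) and *JAM3* (2.18), with a median of 0.54 against 0.01; *CDH2* (-1.15) and *SYMPK* (-0.61) fell. In mural-list spots 11 of 21 rose and 1 fell, led by *CDH5*, the cadherin of endothelial junctions (2.07), *JAM2* (1.85) and *ESAM* (1.66), with a median of 0.55 against 0.01. In fibroblast-list spots 9 of 20 rose and 1 fell, among them *CDH5* (1.86) and *JAM2* (1.81), with a median of 0.75 against 0.01. *CDH2*, the cadherin of neurons and other cells, was the gene that fell in both, by 0.58 and 0.91 on the log2 scale. In endothelium-list spots, with *CDH5* left out because it belongs to that list, 7 of 21 rose and 0 fell, led by *ESAM* (1.66), *F11R* (1.21) and *JAM2* (1.10), with a median of 0.17 against 0.00. In satellite glia-list spots 1 of 22 rose, *NECTIN2* (0.35), a share below that of all features, and at the tissue edge 3 of 22 rose, *CDH5* (0.87), *ESAM* (0.65) and *GJA1* (0.52).

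Of 21 other barrier transport genes listed, 18 carried a symbol, and the neuron-list spots split the 15 tested into 6 higher and 6 lower. The lactate carrier gene *SLC16A1* (0.82), the transferrin receptor gene *TFRC* (0.67) and the sugar carrier gene *SLC2A6* (0.42) were the highest, and *SLCO1A2* (-1.12), the insulin receptor gene *INSR* (-1.09) and *LRP1* (-0.85) the lowest. In mural-list spots 7 of 15 rose and 2 fell, led by *SLC2A12*, another glucose transporter gene (2.099), *SLCO1A2* (2.01) and *LRP1* (1.77), with a median of 0.51 against 0.01. In fibroblast-list spots 6 of 15 rose and 2 fell, led by *SLCO1A2* (2.30), *LRP1* (2.00) and *SLC2A12* (1.91), with a median of 0.47 against 0.01; *SLC2A6* and *TFRC* fell in both. In myelin-list spots 5 of 14 rose and 2 fell, led by *INSR* (1.74), *LRP1* (1.37) and *SLCO2B1* (1.08). In endothelium-list spots, with *PLVAP* left out as a gene of that list, 3 of 14 rose and 0 fell: *SLCO1A2* (1.06), *LRP1* (0.78) and *SLCO2B1* (0.48). In satellite glia-list spots 5 of 15 rose and 3 fell, led by *MFSD2A* (0.64). At the tissue edge 3 of 15 rose, *SLC2A12* (1.10), *PLVAP* (0.83) and *LRP1* (0.60), and in perineurial-list spots 0 of the claudins, partners or transport genes were called by edgeR.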

How the data were processed

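The deposited matrices hold UMI counts per feature and spot. Space Ranger 2.0.0 made 12 of the sections and 2.1.0 made 7, per the file headers. The submitters' processing notes name the build Mmul_10 for all samples, while feature identifiers follow 3 Ensembl annotations, so no coordinates are given. The authors' deposited tables give, per section, summed counts, Moran's I as a score, its p-value and adjusted p-value, and a median-normalised mean signal; the signal was not used. Batch 2 male section 3 entered through its table, and its spots were not analysed here. Tables and matrices differed for 0 features in 19 sections; a chi-square test of 26 pairs of sections gave at least 3.93 per degree of freedom, so each counts as a library of its own. Unnamed features held 18.7% to 24.3% of UMIs and stayed in totals and tests.

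CPM was computed over all features. Counts were summed per specimen, or per specimen and set of spots, and tested with edgeR 4.0.16 in R 4.3.3 (TMM, filterByExpr, glmQLFit and glmQLFTest) with Benjamini-Hochberg adjustment over all features and a threshold of 0.05; DESeq2 1.42.0, no filter, other cuts, sections as samples, and left-out sections or specimens were alternatives. A list set takes spots with at least 200 UMIs and a share above the section's 75th percentile and above 0. Tiles span 6 array rows by 12 columns with at least 18 spots, as log2(CPM + 10) centred per section, among genes with at least 0.02 UMIs per spot. The text names the 6 members, up to 3 called genes per direction of each list, and 3 tile partners per member. An item that this rule would name is not reported here. The rule for the members uses no measured value, but the members and lists were chosen with earlier results of these data known. On simulated data the batch fit recovered 19% of 2-fold and 96% of 4-fold changes, and the endothelium-list fit 60.6% and 100%. Same-numbered sections of different specimens shared no deviation in general, though single pairs did: over 24 pairs the correlation was -0.11 to 0.43 with a median of 0.02. Of 16 sections, 3 correlated best with their own number.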

Additional observations from a re-analysis of the deposited data

Results flagged for a closer look

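Chance alone sets apart about 1 in 20 groups of samples by the measure of distance used here. By that measure *TJP1* in section 3 of the batch 1 male, at 113 CPM, lay far above the other sections of its group, at 61.8 to 66.0 CPM.

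The batch 2 male lay far below the other 3 specimens in 4 log2 ratios of CPM between list spots and other spots. They were 0.65 for *SLC2A1* in mural-list spots, against 2.80 to 2.81 in the others, 0.19 for *SLC2A1* in fibroblast-list spots, against 2.80 to 3.28, 0.99 for *CLDN11* in fibroblast-list spots, against 3.31 to 3.68, and -0.0934 for *TJP1* in fibroblast-list spots, against 1.81 to 2.14. The fibroblast and mural lists had their lowest group means in this specimen, at 314 ± 172 and 486 ± 167 CPM (SD, n = 4 sections).

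In 4 cases both batch 1 specimens moved one way and both batch 2 specimens the other; the difference was not tested. In perineurial-list spots the mean log2 ratio of batch 1 minus that of batch 2 was 3.62 for *CLDN11* and 2.51 for *CLDN1*, with both genes higher in these spots in batch 1. The depth of these spots against the others also differed between the batches, as given above. In satellite glia-list spots the difference was -0.57 for *CLDN11* and -0.30 for *SLC2A1*, with both lower in these spots in batch 1.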

How the results depend on the processing

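Counts of members called that moved by 1.5 times or more changed as follows. For batch, the count of 1 became 2 with no filter on low counts and 3 with sections as samples, both without and with the replicate block, a block by section number; leaving out single sections gave 0 to 1. With no specimen block the count fell to 0 in neuron-list, endothelium-list, mural-list, fibroblast-list and tissue-edge spots and to 1 in myelin-list spots. With DESeq2 the endothelium-list count was 2 and the edge count 2. Of the alternatives added after the data had been seen, spots of a single list against spots of none gave 0 for the neuron list, 1 for satellite glia, 2 for endothelium and, with *CLDN1* not tested, 3 for mural and fibroblast. Leaving out neuron-list spots, also added then, gave 2 for satellite glia, *SLC2A1* and *CLDN11*, each lower in the satellite glia-list spots. For the perineurial list the count of 0 became 3 with no filter, 3 with at least 1000 UMIs per spot, 4 with the cut at the 90th percentile and 3 with sections as samples. Leaving out single specimens gave 0 to 3 there, 0 to 1 for satellite glia and 1 to 4 for fibroblast. It gave 3 to 4 for endothelium and mural, and 2 to 3 at the edge. The counts over all features in these fits without single specimens are not given here. Changes of 1 member: at the 90th percentile myelin went from 3 to 2 (*CLDN11* lost) and fibroblast from 4 to 3 (*CLDN1* lost); the neuron list without neurofilament genes went from 3 to 4 (*CLDN1* gained), and the edge with no filter from 3 to 4 (*CLDN1* gained). The endothelium, mural and fibroblast counts went from 4 to 3 with at least 1000 UMIs per spot and with sections as samples, and the endothelium count also with no filter and outside neuron-list spots, as *CLDN1* failed the filter or lost its call. Requiring a Moran's I of at least 0.1 left 7 sections for *SLC2A1*, 5 for *CLDN11* and 1 for *TJP1*. Among all features of a section, those that passed here ranged widely in the *M. fascicularis* sections. They were 17 of 11984 in section 4 of the batch 2 male and 2232 of 13909 in section 2 of the batch 1 female.

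Counts over all features moved as well. For batch, 364 became 1279 with no filter and 4345 or 4448 with sections as samples, without or with the replicate block; for sex, 0 became 67, 8 and 5. With DESeq2, 5108 became 3313 (neuron list), 1237 became 494 (satellite glia), 1242 became 491 (endothelium), 7 became 68 (perineurial) and 375 became 199 (edge). With no specimen block the counts were 0 to 521 in all 8 spot comparisons. With sections as samples, endothelium went to 2863, mural from 2897 to 4615, fibroblast from 1970 to 4716, perineurial to 1816 and edge to 871. With at least 1000 UMIs per spot, myelin went from 3677 to 1865, mural to 1337, endothelium to 1995 and perineurial to 1496. With the cut at the 90th percentile, endothelium went to 2813, fibroblast to 3536 and perineurial to 2163. With no filter, endothelium went to 1945, perineurial to 682 and edge to 704; outside neuron-list spots, satellite glia went to 638. Spots of a single list gave 1240 for myelin, 480 for endothelium, 321 for mural and 410 for fibroblast.

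Reversed values were few. *TJP1* in sections labelled *P. anubis* over *M. fascicularis* went from -0.16 to 0.0810 (log2) with CPM over the genes named in all 3 annotations. *CLDN1* between sexes, at -0.03, was 0.0175 with DESeq2 and -0.247 to 0.167 without single sections. *SLC2A1* was 0.0524 in neuron-only and 0.0104 in satellite glia-only spots. *TJP1* in satellite glia-list spots was -0.145 outside neuron-list spots, and *CLDN11* there -0.231 to 0.0443 without single specimens, the last without the batch 1 female. The cause of these changes was not tested. Over all planned and added alternatives for single members, 387 kept direction and call, 26 gained a call and 36 lost one.

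Depth limits *CLDN1* and *OCLN*, whose sections hold 0 to 12 and 0 to 8 UMIs, and every value of the sections labelled *M. mulatta*. Spot sets rest on 15 of the 16 *M. fascicularis* sections, and marker lists stand for regions, not cells.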
